A study of Mus musculus with 6 samples.

Results

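The genes described here encode interferon-induced GTPases, the guanosine triphosphate-hydrolysing proteins that cells make in quantity when interferon reaches them. The 10 genes were taken by name from a table of 24982 gene symbols: Gbp2, Gbp3, Gbp5, Gbp6 and Gbp7 of the guanylate-binding protein (GBP) family, and Irgm1, Irgm2, Igtp, Iigp1 and Ifi47 of the immunity-related GTPase (IRG) family. The rule goes by name and uses no measured value, although the genes were proposed with earlier results of these data known. All 10 had counts in every library and all 10 passed the filter on low counts, among 11772 genes tested. The files spell them in capitals (GBP2, GBP3, GBP5, GBP6, GBP7, IRGM1, IRGM2, IGTP, IIGP1 and IFI47).

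RNA was sequenced from CD4+CD25+CD127lo natural regulatory T cells (nTreg cells), sorted from the spleens of B6.129 mice aged 8 to 10 weeks. The KO group had the genotype Srsf1-flox/flox dLck.Cre, in which Cre driven by the distal Lck promoter acts in T cells on the splicing factor gene Srsf1, and the WT group was labelled WT, with no statement of whether it carried Cre or the floxed allele. Both groups had been cultured for 72 h with anti-CD3 and anti-CD28 antibodies (2 µg/ml each) and recombinant interleukin-2 (10 ng/ml), so no resting and no interferon-treated cells were part of the comparison. Each group had 3 libraries, with 10183626 to 20373649 counts in KO and 23263741 to 27562046 in WT.

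Transcripts of Srsf1, the targeted gene, stood at 438, 812 and 787 CPM (read counts scaled for library size) in KO replicates 1, 2 and 3, against 1214, 1230 and 755 CPM in WT replicates 1, 2 and 3 (log2 fold change -0.65, SE 0.32, edgeR adjusted p = 0.682). Counts over the whole gene do not show which exons were lost, and the deleted part is not given in the labels. The library labelled WT replicate 3 had less Srsf1 than a pair of KO libraries, and directions below follow the labels. KO replicate 1 was the library least like the rest, with correlations of log2 CPM across genes of 0.900 to 0.927. Foxp3, which defines regulatory T cells, was present in every library (357 to 464 CPM in KO and 104 to 160 CPM in WT), and every KO library lay above every WT library (log2 fold change +1.68, SE 0.25, edgeR adjusted p = 0.197, DESeq2 adjusted p = 1.59e-06). Of the 8 nTreg cell markers, 5 (Foxp3, Ikzf2, Nrp1, Cd4 and Cd3e) were higher in every KO library than in every WT library. Over all genes tested this share was 7.48%. Ctla4 (-0.79, SE 0.46), Il2ra (-0.09, SE 0.32) and Tnfrsf18 (+0.30, SE 0.35) overlapped between the groups. The part of these markers in the GTPase values was not tested. The 8 markers summed to 5446 to 9212 CPM in KO and 5548 to 8628 CPM in WT, a sum that is mostly Il2ra (3300 to 6880 CPM in KO and 4073 to 6566 CPM in WT). The source field of the labels reads effector CD4 T cells, whereas the titles and the sorting protocol read nTreg.

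GBP proteins are large GTPases of the dynamin superfamily that assemble on pathogen vacuoles and on bacteria in the cytosol, and in the mouse they help to open those vacuoles and to trigger inflammasomes. The IRG proteins of the mouse work beside them: effector members such as Iigp1 and Ifi47 load onto vacuole membranes, while the regulatory members Irgm1, Irgm2 and Igtp sit on the cell's own membranes and hold the effectors inactive there. Interferon gamma switches on both families, in part through the transcription factor IRF1, and in mouse CD4 T cells Irgm1 is known to limit death driven by interferon gamma.

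The promoters of these genes are shown first, searched for the letters of elements through which interferon can act. RefSeq promoter sequence (build GRCm38.p6, while the counts were made on mm9) was matched by symbol and used for 8 of the 10 genes. Gbp6 had no entry under its symbol, and the promoter of Iigp1 is not reported here. Gbp3 had 2 transcript starts, and the 250 bases before each start were searched on both strands. One motif was the core of the interferon-stimulated response element (ISRE), GAAANNGAAA, which IRF proteins bind. The other was the gamma-activated site (GAS), TTCNNNGAA, through which interferon gamma acts. Capitals below mark every match. The whole window is given for Gbp5 and Gbp7, which stand with Gbp3 at the head of the results, and the last 100 bases before the start for the others that held a match.
Gbp5: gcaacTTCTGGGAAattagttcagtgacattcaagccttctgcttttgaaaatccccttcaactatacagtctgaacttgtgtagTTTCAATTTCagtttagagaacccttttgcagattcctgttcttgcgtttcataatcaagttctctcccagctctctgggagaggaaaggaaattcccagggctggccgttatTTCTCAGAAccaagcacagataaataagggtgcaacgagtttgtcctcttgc
Gbp7: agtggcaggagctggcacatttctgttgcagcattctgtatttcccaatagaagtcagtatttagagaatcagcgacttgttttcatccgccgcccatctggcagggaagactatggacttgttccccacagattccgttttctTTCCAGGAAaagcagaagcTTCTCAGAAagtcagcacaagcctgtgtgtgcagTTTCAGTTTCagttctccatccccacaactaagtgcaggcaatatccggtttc
Gbp3: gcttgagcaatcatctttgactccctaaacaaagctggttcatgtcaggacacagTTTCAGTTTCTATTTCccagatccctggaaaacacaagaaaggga
Gbp2: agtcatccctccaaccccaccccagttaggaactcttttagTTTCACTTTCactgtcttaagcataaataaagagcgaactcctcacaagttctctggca
Igtp: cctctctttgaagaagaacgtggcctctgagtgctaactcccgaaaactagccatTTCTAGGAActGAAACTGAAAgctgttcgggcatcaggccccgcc
Irgm2: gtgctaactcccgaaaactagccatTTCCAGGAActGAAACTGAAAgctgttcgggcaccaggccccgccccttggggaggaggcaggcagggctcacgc
Irgm1: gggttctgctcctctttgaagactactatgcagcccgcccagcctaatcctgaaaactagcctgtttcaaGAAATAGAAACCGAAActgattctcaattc

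These windows lie at chr3:142496684-142496933 for Gbp5, chr3:142530086-142530335 for Gbp7, chr3:142559944-142560043 for Gbp3, chr3:142620563-142620662 for Gbp2, chr11:58199456-58199555 for Igtp and chr11:58214877-58214976 for Irgm2, all on the plus strand, and at chr11:48871421-48871520 on the minus strand for Irgm1. The ISRE core was found in 7 of the 8 genes, compared with 2.98% of 32851 promoter windows of the same length over all genes. GAS was found in 4 of the 8 (Gbp5, Gbp7, Igtp and Irgm2), compared with 7.02% of all windows, and all 4 held the ISRE core too, a pairing present in 0.332% of all windows. In Gbp3 and in Irgm1 the match is a pair of overlapping cores, so the capitals run together. Igtp and Irgm2, which are neighbours in the annotation, have the same ISRE core next to a GAS that differs in its middle bases. The second Gbp3 start and the Ifi47 window held neither string of letters. These matches describe sequence and were not tested as binding sites.

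**Figure D1:**
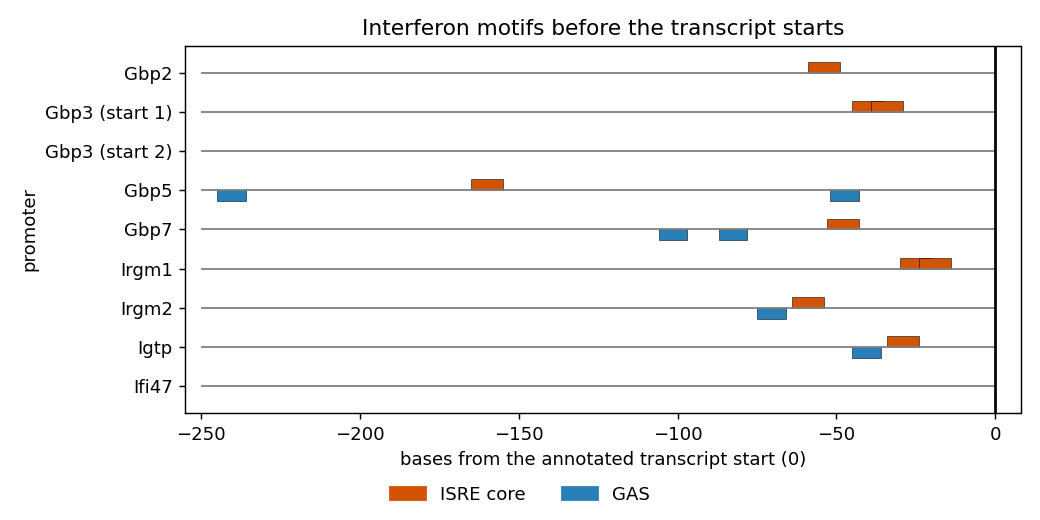
Positions of ISRE cores (orange, above the line) and GAS matches (blue, below the line) in the 250 bases before each annotated transcript start, for 9 windows of 8 genes. The x axis is the distance in bases from the start at 0. All matches lie in the last 106 bases except for a pair in Gbp5, an ISRE core that begins 165 bases and a GAS that begins 245 bases before the start.

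All 10 genes had a log2 fold change above 0 in KO against WT, from +0.14 for Igtp to +1.29 for Gbp5, and none passed the threshold of edgeR's test. Over all genes tested, 51.6% were above 0. The median of the 10 was +0.58, beside +0.02 for all genes tested. The 5 GBP genes had a median of +1.16 and the 5 IRG genes +0.29, a difference between families that was not tested. When the library labelled WT replicate 3 was left out, 8 of the 10 were above 0, their median was +0.30, and the family medians were +1.05 for GBP and +0.14 for IRG genes. In bulk RNA, a different share of cells expressing these genes and a different amount of RNA per cell cannot be told apart.

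edgeR's quasi-likelihood test called 0 of the 10 genes in either direction, compared with 0% of all genes called higher and 0.017% called lower (2 of 11772; 0.017% in both directions together). At an unadjusted p under 0.05, 3 of the 10 (Gbp3, Gbp5 and Gbp7) were higher and 0 lower, beside 4.75% of all genes higher and 2.76% lower. DESeq2 called Gbp3 (adjusted p = 0.0290) and Gbp5 (adjusted p = 0.0310) higher, where it called 0.799% of all genes higher and 0.297% lower. Over 18 alternatives the adjusted p of Gbp3 ran from 0.0290 to 0.999, that of Gbp5 from 0.0310 to 0.999 and that of Gbp7 from 0.0113 to 0.999. When the library labelled WT replicate 3 was left out, DESeq2 called 0 of the 10 genes and 0.426% of all genes higher, while edgeR's log2 fold changes were +1.05 for Gbp3 and +1.09 for Gbp5. In 3 of the 10 genes, again Gbp3, Gbp5 and Gbp7, every KO library lay above every WT library, and in 0 every KO library lay below. Over all genes these shares were 7.48% and 8.18%. With KO replicate 1 left out, 6 of the 10 did not overlap, where 13.4% of all genes lay wholly above. Gbp5, Gbp7 and Gbp3 are consecutive protein-coding genes of chromosome 3 in the RefSeq annotation, followed by Gbp2b and Gbp2. Gbp2b, at most 4.07 CPM in any library and 0 in KO replicate 3, stood at +0.99 (SE 1.13, edgeR adjusted p = 0.813).

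**Figure D2:**
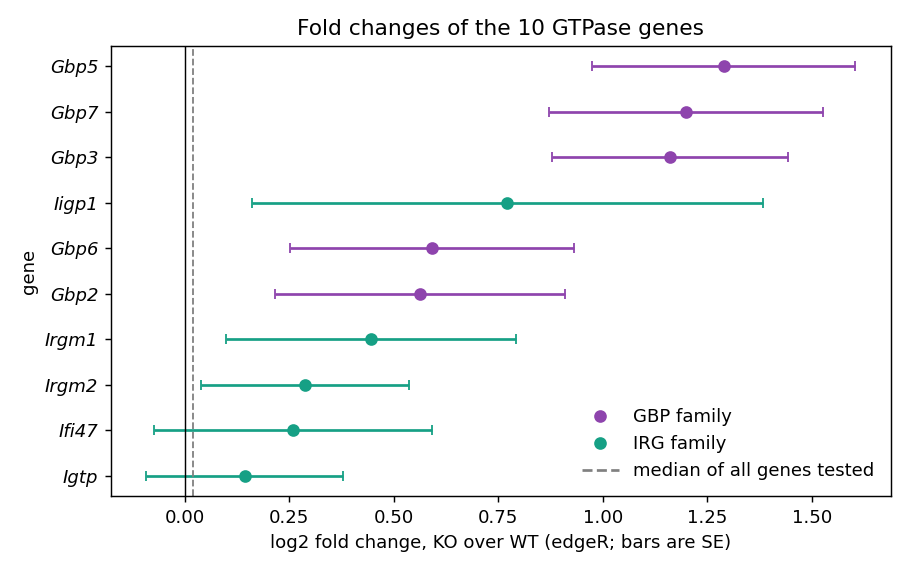
Log2 fold change of each gene in KO over WT on the x axis, with its SE as a bar, GBP genes in purple and IRG genes in green. The dashed line is the median of all genes tested. Gbp5, Gbp7 and Gbp3 stand at +1.16 or more, and every other gene is below +0.80.

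Gbp5, which in mouse macrophages promotes assembly of the NLRP3 inflammasome, had the largest fold change. It was measured at 103, 142 and 81.3 CPM in KO replicates 1, 2 and 3, against 41.3, 60.4 and 32.2 CPM in WT replicates 1, 2 and 3. The lowest KO library was above the highest WT library. The log2 fold change was +1.29 (SE 0.31, edgeR adjusted p = 0.371), and 3 against 3 libraries give an exact two-sided permutation p of 0.1, the smallest such a design allows. With 1 library left out the log2 fold change of Gbp5 ran from +1.05 to +1.57.

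Gbp7, known in mouse macrophages for helping to assemble the phagocyte oxidase, stood at 65.4, 148 and 126 CPM in KO replicates 1, 2 and 3, against 52.7, 55.7 and 39.6 CPM in WT replicates 1, 2 and 3. KO replicates 2 and 3 were far above all WT libraries, while KO replicate 1 lay just over WT replicate 2. Its log2 fold change was +1.20 (SE 0.33, edgeR adjusted p = 0.456), and +1.48 (SE 0.18, edgeR adjusted p = 0.0775) without KO replicate 1. With 2 against 2 libraries, when KO replicate 1 was left out together with the library labelled WT replicate 3, Gbp7 was the one gene of the 10 that edgeR called (+1.36, SE 0.14, edgeR adjusted p = 0.0113), in a fit where edgeR called 64 of 11549 genes higher.

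Gbp3, one of the GBP proteins that gather on Toxoplasma vacuoles in mouse cells, was at 44.1, 66.0 and 42.6 CPM in KO replicates 1, 2 and 3, against 20.7, 28.2 and 19.4 CPM in WT replicates 1, 2 and 3. The groups did not overlap. The log2 fold change was +1.16 (SE 0.28, edgeR adjusted p = 0.371), with a range of +0.93 to +1.34 when 1 library was left out.

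Gbp2, a lipid-anchored GBP and the most abundant of the family here, was at 185, 293 and 244 CPM in KO replicates 1, 2 and 3, against 188, 211 and 89.3 CPM in WT replicates 1, 2 and 3. KO replicate 1 lay below a pair of WT libraries, so the groups overlapped. The log2 fold change was +0.56 (SE 0.35, edgeR adjusted p = 0.724), and leaving out the library labelled WT replicate 3 gave +0.26.

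Gbp6, another of the GBP proteins found on Toxoplasma vacuoles in mouse cells, shares much of its sequence with its neighbour Gbp10. Of all 75-base words (the read length) in GENCODE transcripts of Gbp6, 53.2% also occur in another GBP or IRG gene searched, where Gbp10 shares most. In any other annotated gene 86.0% occur, where Gm43302 shares most. Reads of these genes may therefore have been assigned to another of them or not counted. Counts gave 25.4 to 40.1 CPM in KO and 12.9 to 27.0 CPM in WT, which overlapped (log2 fold change +0.59, SE 0.34, edgeR adjusted p = 0.716), and leaving out the library labelled WT replicate 3 gave +0.34. The authors' FPKM values, which are scaled for transcript length and depth, by contrast did not overlap: 11.2, 16.6 and 11.4 FPKM in KO replicates 1, 2 and 3, against 8.74, 11.0 and 5.61 FPKM in WT replicates 1, 2 and 3. Gbp10 itself had 1.30 to 3.92 CPM in KO and 1.47 to 3.73 CPM in WT. For the other 9 genes the share of words found in another GBP or IRG gene searched was 7.8% at most (Igtp, shared with Irgm2), and it was 0 for Gbp5, Irgm1, Iigp1 and Ifi47. The share found in any other annotated gene was 11.3% at most (Gbp7, where Gm43802 shares most). That share was 2.82% for Ifi47 and 0.0671% for Gbp5.

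**Figure D3:**
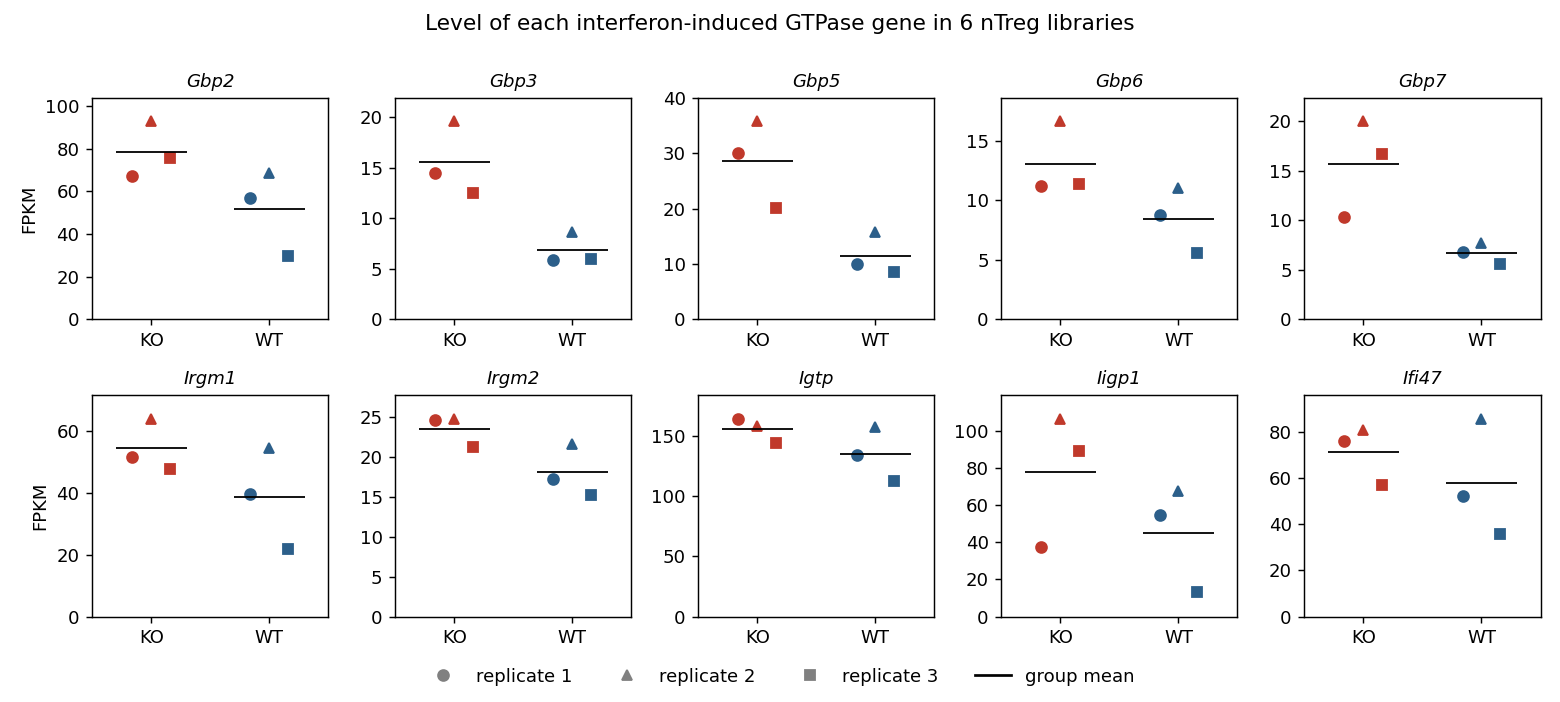
FPKM of each of the 10 genes in each library, KO in red and WT in blue, with a marker shape for each replicate number and the group mean as a black line. Every y axis starts at 0 and has its own scale. KO libraries stand clear of WT libraries for Gbp3, Gbp5 and Gbp7 on this scale. For Gbp6, KO replicate 1 (11.2 FPKM) lies just over WT replicate 2 (11.0 FPKM). Replicate 3 is the lowest WT library in all genes except Gbp3.

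Among the IRG genes, Iigp1, an effector that loads onto parasite vacuoles, varied most between libraries. It was at 128, 419 and 358 CPM in KO replicates 1, 2 and 3, against 222, 258 and 49.6 CPM in WT replicates 1, 2 and 3. KO replicate 1 lay below WT replicates 1 and 2, while the library labelled WT replicate 3 was the lowest of all 6. The log2 fold change of +0.77 had an SE of 0.61 (edgeR adjusted p = 0.755). Leaving out the library labelled WT replicate 3 gave +0.33, and leaving out WT replicate 2 gave +1.15.

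Igtp, a regulatory member on the endoplasmic reticulum, had the smallest fold change and SE of the 10. Its counts gave 334, 393 and 362 CPM in KO replicates 1, 2 and 3, against 346, 379 and 261 CPM in WT replicates 1, 2 and 3. The groups overlapped and the log2 fold change was +0.14 (SE 0.23, edgeR adjusted p = 0.864). Leaving out the library labelled WT replicate 3 gave -0.0048.

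Irgm1, the regulatory member tied to survival of mouse CD4 T cells, was at 124, 178 and 136 CPM in KO replicates 1, 2 and 3, against 115, 149 and 57.9 CPM in WT replicates 1, 2 and 3, with a log2 fold change of +0.45 (SE 0.35, edgeR adjusted p = 0.754). With 1 library left out, Irgm1 ran from +0.14 (without the library labelled WT replicate 3) to +0.75 (without WT replicate 2). Irgm2, the regulatory member next to Igtp, ran from 74.6 to 108 CPM in KO and from 59.0 to 88.9 CPM in WT (log2 fold change +0.29, SE 0.25, edgeR adjusted p = 0.770), and leaving out the library labelled WT replicate 3 gave +0.14. Ifi47, an effector member, ran from 123 to 171 CPM in KO and from 71.7 to 176 CPM in WT (+0.26, SE 0.33, edgeR adjusted p = 0.834). For Ifi47, leaving out the library labelled WT replicate 3 gave -0.015. In these 3 genes the groups overlapped, and an adjusted p above the threshold does not show that they were alike.

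The library labelled WT replicate 3 had the lowest CPM of the 6 libraries in 10 of the 10 genes, compared with 16.8% of all genes tested. KO replicate 2 had the highest in 9 of the 10, compared with 11.5% of all genes, the exception being Ifi47, which was highest in WT replicate 2. KO replicate 2 and WT replicate 2 were the libraries read as male by Xist, and each was the highest of its own group in all 10 genes. The share of all genes with this order was not counted. No other library was read as male, so sex cannot be told apart from the library itself in either group. With sex as a covariate edgeR called 0 of the 10 genes, and the median was +0.59. As mean log2 CPM of the 10 genes minus the average over WT libraries, KO replicates 1, 2 and 3 stood at +0.39, +1.07 and +0.66, and WT replicates 1, 2 and 3 at +0.14, +0.45 and -0.59. KO replicate 1 was thus below WT replicate 2. For the GBP genes alone, KO libraries stood at +0.68, +1.37 and +0.85 and WT libraries at +0.08, +0.38 and -0.46, without overlap. For the IRG genes KO libraries stood at +0.11, +0.76 and +0.47 and WT libraries at +0.20, +0.52 and -0.72, so that KO replicate 1 was below WT replicates 1 and 2.

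**Figure D4:**
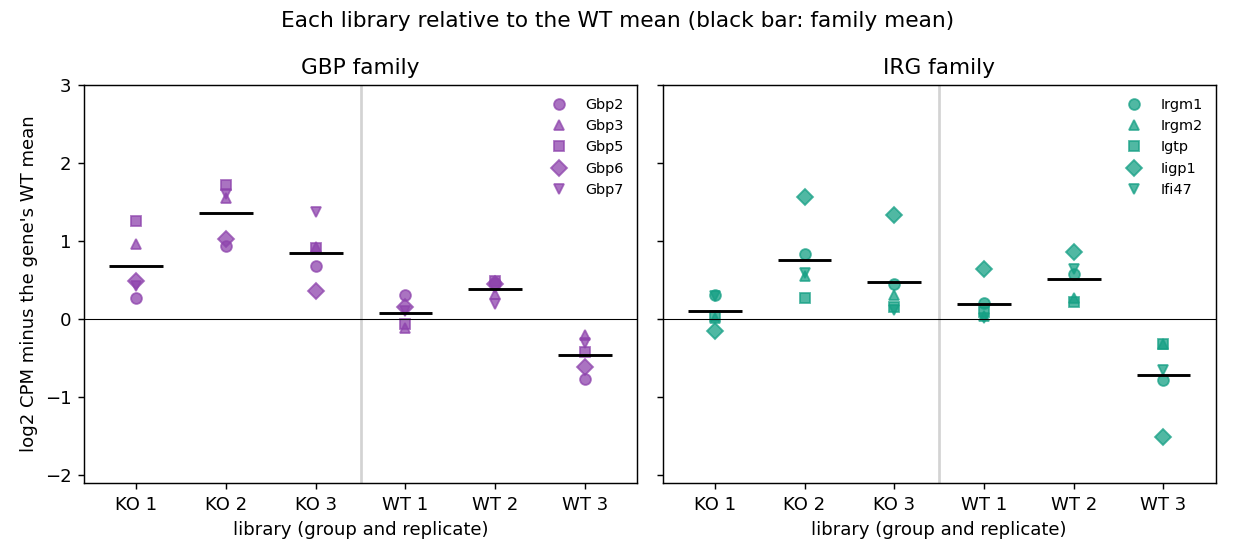
Log2 CPM of each gene in each library minus its own mean over the 3 WT libraries, GBP genes on the left and IRG genes on the right, with black bars for the family mean. The library labelled WT replicate 3 is below 0 for all 10 genes, and the spread between WT libraries is wider than the distance between group means for the IRG genes.

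By level per transcript length, Igtp was highest, with 155 ± 10.5 FPKM in KO and 135 ± 22.6 FPKM in WT (mean ± SD, n = 3 each). Its lowest library (112 FPKM) was above the highest library of any other of the 10 genes (106 FPKM, Iigp1 in KO replicate 2). Gbp2, Iigp1, Ifi47 and Irgm1 came next, with means of 78.6, 77.7, 71.2 and 54.4 FPKM in KO and 51.8, 45.2, 57.9 and 38.6 FPKM in WT, and their ranges overlapped. Gbp5 averaged 28.7 ± 7.92 FPKM in KO and 11.4 ± 3.80 FPKM in WT, and Irgm2 23.6 ± 2.02 FPKM in KO and 18.1 ± 3.28 FPKM in WT, so that Gbp5 had the higher mean in KO and Irgm2 the higher mean in WT. Gbp7, Gbp3 and Gbp6 were the lowest, between 13.0 and 15.6 FPKM in KO and between 6.71 and 8.46 FPKM in WT, with overlapping ranges. Together the 10 genes held 0.132%, 0.196% and 0.156% of all counts in KO replicates 1, 2 and 3, and 0.114%, 0.141% and 0.0701% in WT replicates 1, 2 and 3.

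The other interferon-induced GTPases on the list had 14 of 15 tested genes above 0 and a median of +0.52. edgeR called 0 of them (2 at an unadjusted p under 0.05, 0 by DESeq2). Leading by p were F830016B08Rik (+1.93, SE 0.56), Gbp4 (+0.70, SE 0.28), Gm4841 (+1.14, SE 0.59) and Gbp9 (+0.59, SE 0.31). Their edgeR adjusted p ran from 0.480 to 0.695. F830016B08Rik, next to Iigp1 in the RefSeq annotation, had 1.92 to 5.96 CPM in KO and 0.718 to 1.65 CPM in WT. Gbp8 was the one gene below 0 (-0.36, SE 0.42). The library labelled WT replicate 3 was the lowest of the 6 in 9 of these 15 genes.

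Genes of the interferon gamma receptor pathway had 11 of 15 above 0 and a median of +0.19, with 0 called by edgeR (1 at an unadjusted p under 0.05, 0 by DESeq2). Leaving out KO replicate 2 gave a median of +0.12, and leaving out KO replicate 1 left 9 of 15 above 0. The ligand gene Ifng was at 188, 393 and 198 CPM in KO replicates 1, 2 and 3, against 173, 284 and 176 CPM in WT replicates 1, 2 and 3 (+0.30, SE 0.35, edgeR adjusted p = 0.818). Its receptor chain Ifngr1 stood at +0.17 (SE 0.29). Irf1, which binds the ISRE, stood at +0.63 (SE 0.30) and Nlrc5, the activator of MHC class I genes, at +0.57 (SE 0.23). Irf1 was at 182, 119 and 120 CPM in KO replicates 1, 2 and 3, against 92.1, 119 and 61.5 CPM in WT replicates 1, 2 and 3. The groups overlapped for Irf1, which was highest in KO replicate 1 and lowest in the library labelled WT replicate 3. Socs1, the feedback inhibitor of the receptor's kinases, had 296 CPM in KO replicate 1, while the other 5 libraries ran from 45.3 to 55.0 CPM (+1.38, SE 0.66).

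The pattern of the 10 genes over the 6 libraries was also compared with that of every other gene tested. The measure was the root mean square distance between centred log2 CPM values and the average of the 10, and the 10 genes themselves lay at 0.117 (Gbp2) to 0.608 (Iigp1). Among the nearest other genes were Ulbp1 (0.108), a ligand of the receptor NKG2D, Cttnbp2nl (0.131), Tnfsf8 (0.138), which encodes CD30 ligand, Ikzf2 (0.151), which encodes Helios, and Nrp1 (0.160), a surface protein of natural regulatory T cells. Ikzf2 and Nrp1 are also among the nTreg cell markers summed above. Being chosen for this likeness, they follow the direction of the 10, which is no separate result.

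Interferon-stimulated genes outside the GTPase families had fold changes on both sides of 0. Of 15 other interferon gamma targets tested, 13 were above 0 (median +0.66, 0 called by edgeR or DESeq2, 4 at an unadjusted p under 0.05). Leading were the glycoprotein gene Lgals3bp (+1.14, SE 0.35), the chemokine Cxcl10 (+2.53, SE 0.90), the adhesion molecule Icam1 (+0.81, SE 0.33) and the peptide-loading chaperone Tapbp (+0.83, SE 0.36). Cxcl10 had at most 5.28 CPM in any library, and KO replicate 3 (0.602 CPM) lay below WT replicates 1 and 2 (0.859 and 0.941 CPM). For Lgals3bp, Icam1 and Tapbp the highest library was KO replicate 1, in which Tapbp had 412 CPM, compared with 211 and 169 CPM in KO replicates 2 and 3. That list's median was +0.24 without KO replicate 1, and +0.11 with 9 of 15 above 0 in the 2 against 2 fit described above. In that fit the median was +0.45 for the 10 GTPase genes, with 10 of 10 above 0, and +0.42 for the antiviral list, with 15 of 21 above 0. Of 21 antiviral interferon-stimulated genes tested, 14 were above 0 (median +0.55), and edgeR called 0 (7 higher and 1 lower at an unadjusted p under 0.05) where DESeq2 called 3 higher and 1 lower. The antiviral median was +0.25 without KO replicate 1, +0.14 without KO replicate 2 and +0.12 where genes needed 1 CPM in 3 libraries. The 4 with the smallest p were the ones DESeq2 called. Oasl2 (+2.60, SE 0.55, at most 2.47 CPM in any library), the nucleic acid sensor Zbp1 (+1.13, SE 0.26) and Isg20 (+1.59, SE 0.43, at most 10.3 CPM) were above 0. Ifit1 (-1.76, SE 0.43, at most 4.39 CPM in any library), which binds foreign RNA caps, was below 0. Genes of the type I interferon receptor pathway had 7 of 9 above 0 (median +0.39, 0 called by edgeR or DESeq2, 2 at an unadjusted p under 0.05), led by Irf7 (+1.71, SE 0.60, at most 4.43 CPM in any library), Irf5 (+1.04, SE 0.43), Irf9 (+0.52, SE 0.24) and Tyk2 (+0.54, SE 0.38). Their median was +0.08 without KO replicate 1.

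**Figure D5:**
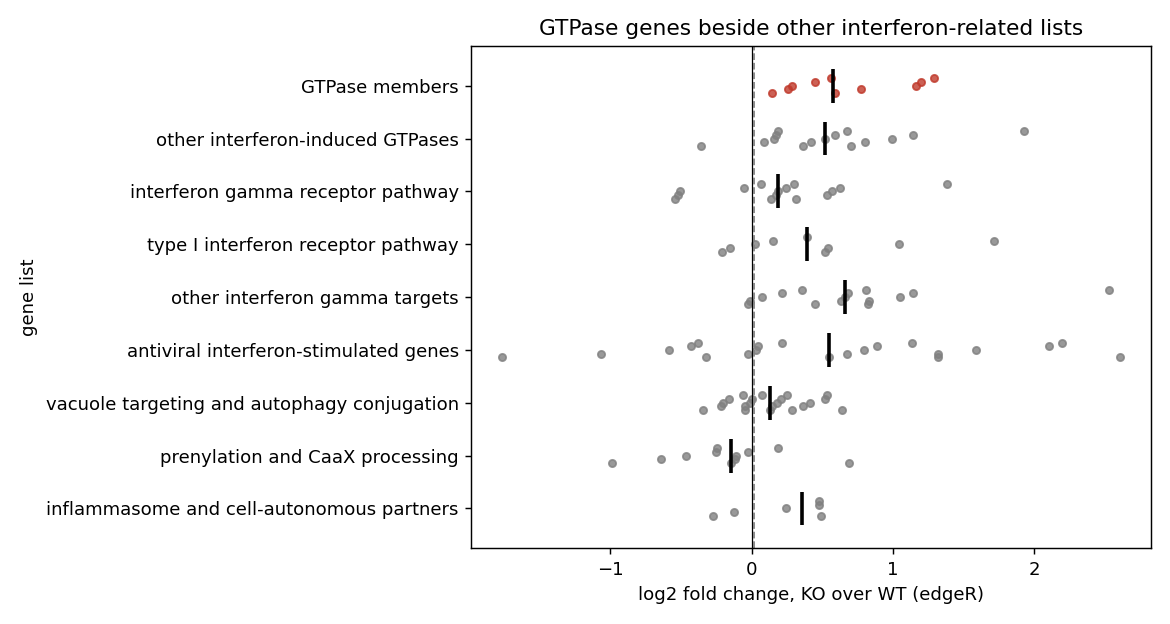
Log2 fold change in KO over WT of every tested gene, by list, with the 10 GTPase genes in red and the other lists in grey. Black bars are list medians and the dashed line is the median of all genes tested. The 10 GTPase genes lie between +0.14 and +1.29, while the antiviral list runs from -1.76 to +2.60. The ends of that list are Ifit1 and Oasl2, with at most 4.39 and 2.47 CPM in any library.

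Markers of other cell types were measured beside these values. The 6 CD8 T cell markers summed to 171 to 195 CPM in KO and 296 to 408 CPM in WT, and Cd8b1 was 1 of the 2 genes that edgeR called lower in KO (-2.68, SE 0.23, edgeR adjusted p = 0.0166), the other being Dapl1. Cd8a stood at -1.92 (SE 0.29), while the other 4 markers of that list ran from -0.58 (Crtam) to +0.85 (Eomes) and overlapped between the groups. The 13 macrophage and monocyte markers summed to 29.2 to 56.1 CPM in KO and 14.2 to 24.4 CPM in WT, with Csf1r, Lyz2 and C1qa at 0 in all libraries and Adgre1, Cd14, Itgam, Spi1 and Tyrobp at 10 counts or fewer. Ccr2 was the largest part of that sum in every library (9.23 to 37.1 CPM in KO and 10.2 to 15.2 CPM in WT). Ccr2 overlapped between the groups, as did Vcam1 (3.89 to 8.68 CPM in KO and 0.251 to 5.14 CPM in WT). Fcer1g (5.06 to 7.22 CPM in KO and 0.497 to 1.65 CPM in WT) and Cd68 (4.83 to 8.14 CPM in KO and 1.40 to 3.98 CPM in WT) did not overlap. The 8 dendritic cell markers summed to 107 to 335 CPM in KO and 94.8 to 171 CPM in WT, with Clec9a at 0 and Flt3, Xcr1 and Siglech at 10 counts or fewer. Most of that sum is Ccr7, which T cells also express (91.1 to 261 CPM in KO and 71.9 to 135 CPM in WT). That list holds Bst2, which the antiviral list also holds. The 8 B cell markers summed to 1.70 to 7.22 CPM in KO and 3.06 to 5.17 CPM in WT. Of that list Blk (0.501 to 1.92 CPM in KO and 0.108 to 0.275 CPM in WT) did not overlap, while Cd79b (-0.25, SE 0.63) did. The 8 NK cell markers summed to 54.7 to 350 CPM in KO and 44.8 to 340 CPM in WT, mostly Gzma (45.0 to 321 CPM in KO and 35.3 to 315 CPM in WT). Klrb1b (1.40 to 4.53 CPM in KO and 0.275 to 0.718 CPM in WT) and Klrb1c (0.869 to 1.91 CPM in KO and 0.181 to 0.789 CPM in WT) did not overlap, at edgeR adjusted p of 0.456 and 0.618. Ncr1 (0.301 to 2.04 CPM in KO and 0.0359 to 0.136 CPM in WT) did not overlap either, and it did not pass the filter on low counts. Klra7 (+1.11), Klre1 (+0.74), Gzma (+0.14) and Klrd1 (-0.015) overlapped. Every KO library lay above every WT library in 7.48% of all genes tested. Neutrophil and erythroid markers summed to at most 1.65 CPM in any library. The part of any of these cells in the GTPase values was not tested.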

How the data were processed

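Raw read counts for 24982 gene symbols were deposited, along with the authors' FPKM values for 24917 of them. One more deposited table, of other values, is the alignment report. Reads were 75-base single ends from stranded mRNA libraries processed with VIPER, as the design text states, and mapped to mm9, per the submitters' processing notes. Per the file headers the aligner was STAR 2.4.2a. How reads were assigned to genes, with which strand option and gene models, is not stated in the sources used here. Antisense and overlapping genes may therefore share reads. In 26 entries a date stands for a symbol. They hold 0.271% of all counts and were kept.

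Groups and replicate numbers came from the sample titles, and the design text gives 3 mice per genotype, so replicates are taken as separate animals. Counts were tested over all genes with edgeR 4.0.16 in R 4.3.3 (quasi-likelihood F test with TMM scaling, p adjusted by Benjamini and Hochberg at a threshold of 0.05, genes kept by filterByExpr at min.count 10), with SE from the F statistic. Alternatives used DESeq2 1.42.0 and limma 3.58.1 (voom, or log2(FPKM + 1) and log2(FPKM + 0.1)). A covariate for sex used Xist (4 female libraries). The pipeline was tested on simulated data. Depth sets a floor of 3 counts, 0.109 to 0.295 CPM, which covers counting error only. No pair of libraries was alike within sampling noise (chi-square per degree of freedom 22.1 to 375). The genes and lists were chosen with earlier results of these data known. Named beside the 10 are 4 genes per list with the smallest p, 6 pathway genes and the 6 nearest by pattern, of which 1 gene is not reported here. Gbp2b, Gbp8, Gbp10, Dapl1, the markers named singly and the libraries given as highest or lowest were singled out after their values were seen. Promoters came from RefSeq (GRCm38.p6) and 75-base words from GENCODE M21 transcripts. Protein sequences were not used here.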

Additional observations from a re-analysis of the deposited data

How the results depend on the processing

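Of 180 fold changes (10 genes under 18 alternatives), 175 kept their direction and their side of the threshold, 3 passed it (Gbp3 and Gbp5 with DESeq2, Gbp7 with 2 against 2 libraries, which leaves out the library labelled WT replicate 3 along with KO replicate 1) and 2 changed sign, both without the library labelled WT replicate 3: Igtp at -0.0048 and Ifi47 at -0.015. With 1 library left out, Igtp ran from -0.0048 to +0.25 and Ifi47 from -0.015 to +0.63. edgeR called 0 of the 10 genes with any 1 library left out, and the median of the 10 ran from +0.30 to +0.81. DESeq2 called 2 of the 10, and edgeR with 2 against 2 libraries 1. Over all genes, edgeR called 2, and 0 to 3 with 1 library left out, 6 with no filter, 0 with sex (from Xist) as covariate and 80 with 2 against 2 libraries. DESeq2 called 129, voom 1 and limma on log2(FPKM + 1) with no filter 0. In the other gene lists DESeq2 called 4 genes and the 2 against 2 fit 3, against 0 in edgeR.

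The replicate number as a block (replicate block) gave 0 of the 10 genes and 1 over all genes. The numbers were not taken to pair the samples, since deviations of same-numbered libraries correlated at -0.36, 0.15 and 0.14 and not every pair was over 0.1. Same-numbered libraries were of the same sex by Xist in all 3 pairs.

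Chosen after seeing the data, the counts in the text were also taken without the libraries that stand apart. Every KO library lay above every WT library in 6 of the 10 genes without KO replicate 1 (13.4% of all genes), in 3 without the library labelled WT replicate 3 (13.3%) and in 6 without both (22.8%). The genes at an unadjusted p under 0.05 numbered 3, 3 and 5 in the same order of fits (5.17%, 3.95% and 8.42% of all genes), and those called higher by DESeq2 3, 0 and 4 (1.09%, 0.426% and 1.92%).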

Other observations

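Genes of processes linked to these GTPases are given here by list. Of 21 tested genes of vacuole targeting and autophagy conjugation, the machinery that in the mouse guides GBP and IRG proteins to membranes, 13 had a log2 fold change above 0 (median +0.13), and edgeR and DESeq2 called 0, with 0 at an unadjusted p under 0.05. Without KO replicate 3 the median was -0.0037, with 10 of 21 above 0. The smallest p belonged to Calcoco1 (+0.53, SE 0.32), Gabarapl1 (-0.34, SE 0.21), Map1lc3b (+0.41, SE 0.27) and Ulk1 (+0.64, SE 0.42). Of 11 genes of prenylation, the kind of modification that anchors some GBP proteins, 2 were above 0 (median -0.15), and edgeR and DESeq2 called 0. Fdps stood at -0.99 (SE 0.31), Rabggtb at -0.47 (SE 0.21), Rce1 at +0.69 (SE 0.49) and Chm at -0.64 (SE 0.48). Rabggtb and Chm serve the prenylation of Rab proteins rather than of GBP proteins. With 1 library left out the median ran from -0.27 (without the library labelled WT replicate 3) to -0.09 (without KO replicate 1), and 4 of 11 were above 0 without KO replicate 2 or KO replicate 3. Fdps alone, which makes the prenyl precursor farnesyl diphosphate, had an unadjusted p under 0.05 in edgeR. It was at 75.0, 45.1 and 69.4 CPM in KO replicates 1, 2 and 3, against 93.4, 110 and 172 CPM in WT replicates 1, 2 and 3, without overlap.

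Inflammasome genes had 4 of 6 tested above 0 (median +0.36, 0 called by edgeR or DESeq2, 0 at an unadjusted p under 0.05), with Pycard at +0.48 (SE 0.37), Gsdmd at +0.48 (SE 0.37), Casp1 at +0.49 (SE 0.48) and Aim2 at -0.27 (SE 0.38). Their median was +0.09 without KO replicate 1 and +0.07 without KO replicate 2. Il1b, Il18, Nlrp3 and Nlrc4 did not pass the filter on low counts. Tgtp1 and Tgtp2, IRG effectors that share 74.6% and 85.2% of their 75-base words with other genes of these families, stood at +0.18 (SE 0.41) and +0.52 (SE 0.41), and their separate values are uncertain.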
